A study of Mus musculus with 20 samples.

Results

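The response of the mouse heart to Zeb2os was compared between 2 vectors that carried it under different promoters. For each gene the contrast was the log2 fold change of Zeb2os over control with the hTNNT2 promoter, minus the same with the CMV promoter. The authors' deposited tables listed 26214 genes, and the 20754 genes with a p-value in both entered the contrast. RNA came from the heart apex of 20 uninjured wild-type FVB/NRj mice on postnatal day 28, each given an AAV9 vector by retro-orbital injection. The 4 groups were CMV control, CMV Zeb2os, hTNNT2 control and hTNNT2 Zeb2os, with 5 mice in each. Males made up 2 of 5 mice in the CMV control group, 1 of 5 with CMV Zeb2os, 0 of 5 in the hTNNT2 control group and 3 of 5 with hTNNT2 Zeb2os. Thus the share of males shifted by -20 percentage points with Zeb2os under CMV and by 60 points under hTNNT2, a gap of 80 points in the contrast. The cargo of the control vectors is not named in the labels.

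AAV9 is a virus-based vector with good uptake in heart muscle. The CMV promoter is active in most cell types, whereas the human promoter of cardiac troponin T (hTNNT2) is used to restrict a cargo to heart muscle cells. Zeb2os is a long noncoding RNA read from the strand opposite Zeb2, a zinc-finger transcription factor that binds E-box sequences and is known for its part in epithelial-to-mesenchymal transition. In human epithelial cells the antisense RNA is known to keep an intron near the start of the ZEB2 transcript unspliced, which raises ZEB2 protein. All values below rest on the apex as a whole, so a lower RNA content per cell and fewer cells of a type cannot be told apart. The 9 heart muscle marker genes were all well covered, with a median mean count of 231827 in the authors' deposited CMV table and 270546 in the hTNNT2 one. No values per mouse were analysed here, and the spread between mice enters only through the authors' standard errors (SE).

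The vector's own RNA is the first check on a comparison of promoters, and part of the Zeb2os locus is shown for this reason. In GENCODE M21 on GRCm38, the transcript Zeb2os-201 has 3 exons on the plus strand of chromosome 2 between 45110707 and 45114087 and is 1736 bases long. Of these bases, 633 (36.5%) also lie in exons of Zeb2 on the minus strand. The final 579 bases of its last exon lie outside any Zeb2 exon. The stretch below covers chr2:45113479-45113678 on the plus strand. Capitals mark its first 30 bases, which lie in exons of both genes. The other letters lie in a Zeb2os exon and outside any Zeb2 exon.
Zeb2os-201: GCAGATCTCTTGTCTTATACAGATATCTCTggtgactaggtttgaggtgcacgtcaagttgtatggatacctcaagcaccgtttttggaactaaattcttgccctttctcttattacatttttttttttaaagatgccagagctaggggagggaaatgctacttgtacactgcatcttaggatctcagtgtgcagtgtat
The strand setting of the counting, not given in the sources used here, would decide whether reads of the shared bases can be assigned to Zeb2os or Zeb2. Reads from the vector and from the mouse's own gene cannot be told apart.

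Zeb2os was the 1 gene called different between the promoters at an adjusted p under 0.05, which is 0.00482% of the 20754 genes tested. Its log2 fold change was 3.66 (SE 0.071) with CMV and 4.53 (SE 0.083) with hTNNT2, by the authors' deposited tables. The response was thus larger with hTNNT2 by 0.87 (SE 0.11) on the log2 scale, with an adjusted p of 4.02e-11 in a 2-sided normal test with Benjamini-Hochberg adjustment. The call was lost when the Wald statistics of the tables were compared in place of the fold changes (adjusted p = 1), and held with an adjusted p between 1.23e-13 and 1.65e-08 in the other 7 alternatives, 3 of which change only the genes adjusted over. No gene was called with a lower value with hTNNT2, either in this test or when the Wald statistics were compared. At an unadjusted p under 0.05, 205 genes were lower in this test.

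The mean level of Zeb2os differed between the tables by more than its fold change did. Its mean normalised count over 10 mice was 4138 in the authors' deposited CMV table and 43281 in the hTNNT2 one. The median of the 13184 genes averaging 50 or more counts in both tables had a ratio of 1.16 between the tables, which were normalised separately. Against that gene, Zeb2os stood 9.02-fold higher in the hTNNT2 table, a log2 ratio of 3.17. With the deposited fold change, the Zeb2os arm came to 7669 with CMV and 82969 with hTNNT2, and it cannot exceed 8275 and 86563 by the means of the authors' deposited tables. The ratio of the 2 Zeb2os arms was estimated at 10.8 by the deposited fold changes and at 10.5 with the control arms set to 0, or 9.33 and 9.02 relative to the median gene. The control arms came to 606 and 3594 by the fold changes of the authors' deposited tables, which are shrunken as described with the sex-linked genes. With that shrinkage undone, the log2 fold change of Zeb2os was 6.83 or 7.89 with CMV and 8.61 or 9.56 with hTNNT2, depending on which of 2 solutions was taken. The control arms then came to 72.1 or 34.7 with CMV and 221 or 115 with hTNNT2, and the ratio of the Zeb2os arms remained at 10.5. These values are approximate for a change of this size. Zeb2os had 0.695 times the mean count of Zeb2 in the CMV table and 5.01 times in the hTNNT2 table. Promoter, table and any batch cannot be told apart in these levels, which have no test.

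Zeb2 did not pass the test of a difference between promoters. Its log2 fold change was -0.0095 (SE 0.059) with CMV and 0.033 (SE 0.080) with hTNNT2, as the authors' deposited tables give it. The difference was 0.042, with a 95% interval from -0.15 to 0.24 on the deposited scale. Its mean count did stand apart, at 5953 in the authors' deposited CMV table and 8631 in the hTNNT2 one. Relative to the median gene, Zeb2 was 1.25-fold higher in the hTNNT2 table and ranked 7 from the top among these 13184 genes. This ratio compares whole tables of 10 mice, control and Zeb2os arms together, so promoter, table and any batch cannot be told apart, and it has no test.

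After Zeb2os, the clearest larger responses with hTNNT2 were those of Polq, Itgbl1 and Serpina3n, none of which passed the adjusted threshold. Polq (chromosome 16, 37011741 to 37095419, GRCm38) encodes DNA polymerase theta, which joins broken DNA ends. Its log2 fold change was -0.12 (SE 0.063) with CMV and 0.25 (SE 0.057) with hTNNT2 in the authors' deposited tables, a difference of 0.38 (SE 0.085, adjusted p = 0.0869 in the normal test). Its 2 responses had opposite signs, each at an unadjusted p under 0.05. Itgbl1 (chromosome 14, 123659937 to 123978865), an integrin-related secreted protein, had -0.067 (SE 0.067) with CMV and 0.39 (SE 0.083) with hTNNT2 in the authors' deposited tables. Its difference was 0.45 (SE 0.11, adjusted p = 0.132 in the normal test), the largest of any gene but Zeb2os. Serpina3n (chromosome 12, 104406646 to 104414334), a secreted serine protease inhibitor of the acute phase, had -0.10 (SE 0.055) and 0.28 (SE 0.075) in the authors' deposited tables, a difference of 0.39 (adjusted p = 0.199 in the normal test).

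Enc1, an actin-associated protein first described in neurons, was the 1 of the 9 clearest genes after Zeb2os on this side whose larger response was with CMV. It stood at -0.30 (SE 0.066) with CMV and, in the authors' deposited tables, at 0.082 (SE 0.081) with hTNNT2, for a difference of 0.39. Sfrp1, a secreted inhibitor of Wnt signalling, and Bmper, a secreted regulator of BMP signalling, had differences of 0.38 and 0.34. Cyfip2, which belongs to the actin-regulating WAVE complex, had 0.41. Osr1, a transcription factor of connective tissue, and Hsd11b1, the enzyme that regenerates active glucocorticoid, each had 0.34. For these 6 genes the adjusted p ranged from 0.458 to 0.743, and each had a fold change below 0 with CMV and above 0 with hTNNT2. Choosing genes by their difference favours opposite signs.

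On the other side, Dusp5 and Adrb1 led the genes with a lower value with hTNNT2 than with CMV. Dusp5 (chromosome 19, 53529145 to 53541809), a nuclear phosphatase that turns off ERK, had a log2 fold change of 0.030 (SE 0.071) with CMV and -0.37 (SE 0.080) with hTNNT2, by the authors' deposited tables. The difference was -0.40 (SE 0.11, adjusted p = 0.587 in the normal test). Adrb1 (chromosome 19, 56722117 to 56725150), the main beta-adrenergic receptor of heart muscle, had 0.029 (SE 0.059) and -0.32 (SE 0.071) in the authors' deposited tables, and its difference was -0.34 (adjusted p = 0.587). Adora1, the adenosine receptor that slows the heart, had 0.14 (SE 0.070) and -0.22 (SE 0.080) in the authors' deposited tables, each at an unadjusted p under 0.05 and with opposite signs. Its difference was -0.36 (adjusted p = 0.743). Aqp4, a water channel, had a difference of -0.38, Slc35g2, a membrane protein of a transporter family, -0.34, Pirt, a regulator of TRP channels in sensory neurons, -0.34, and Fam181b -0.34. Adamts7, an extracellular protease, had -0.33, G0s2, an inhibitor of fat breakdown, -0.32, and the orphan receptor Gpr22 -0.32. All 10 genes had fold changes above 0 with CMV and below 0 with hTNNT2. Such a pattern is favoured by choosing genes by their difference, and over all 20754 genes 10034 had opposite signs.

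**Figure D1:**
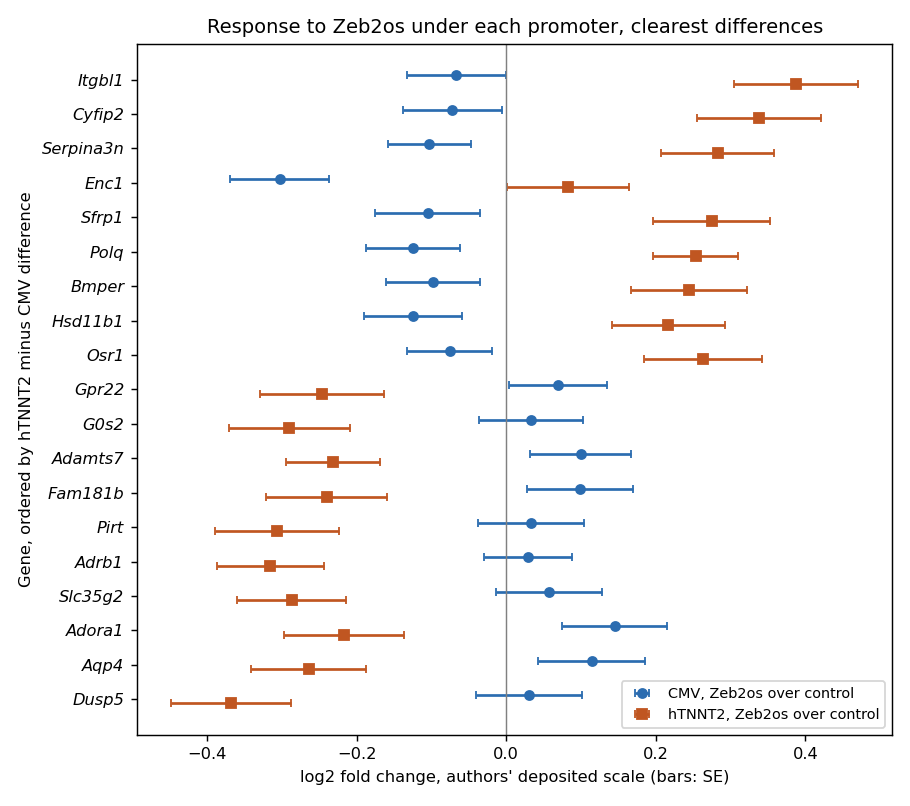
Deposited log2 fold change of Zeb2os over control for the 19 clearest differences after Zeb2os, with CMV as blue circles and hTNNT2 as orange squares (5 against 5 mice each, bars are the deposited SE). In each gene the 2 points lie on opposite sides of 0, which choosing genes by their difference favours, and Enc1 is the gene whose larger response was with CMV.

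The genes that the authors' deposited hTNNT2 table itself called show how far a call in 1 table is from a call of the difference. Besides Zeb2os, 6 genes had an adjusted p under 0.05 there (the 7 calls are 0.0326% of its 21461 genes with a p-value). The authors' deposited CMV table called 1 gene, Zeb2os, 0.00469% of 21318. Lyz2, the lysozyme of macrophages, had 0.041 (SE 0.069) with CMV and 0.34 (SE 0.071) with hTNNT2 in the authors' deposited tables, and the difference of 0.30 (SE 0.099) had an adjusted p of 1 in the normal test. Lepr, the leptin receptor, had 0.035 (SE 0.063) and 0.31 (SE 0.069) in the authors' deposited tables, and its difference of 0.28 (SE 0.094) also had an adjusted p of 1. The other 4 were Polq, Itgbl1, Dusp5 and Adrb1, and 0 of the 6 had a difference past the threshold.

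An unadjusted p under 0.05 for the difference was found in 550 genes, 2.65% of those tested, which is below the 5% such a threshold gives with no difference and errors as deposited. The statistics of the difference had a robust spread of 0.799, against 1 for such errors. Of the 550, 345 (1.66%) had the larger value with hTNNT2 and 205 (0.988%) the smaller. Among the 345, the median log2 fold change was -0.062 with CMV and 0.15 with hTNNT2. At the same level in the authors' deposited tables, hTNNT2 alone held 203 of them, CMV alone 47, both held 6 and neither held 89. Of the 205, the medians were 0.057 with CMV and -0.13 with hTNNT2, and the same 4 counts were 109, 27, 1 and 68 by the authors' deposited tables. Opposite signs in the pair of tables were found in 308 of the 345 and 191 of the 205, a pattern that choosing genes by their difference favours.

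Seen side by side, the log2 fold changes with the 2 promoters were only weakly related across genes. The Spearman coefficient of the log2 fold changes was 0.056 over the 20754 genes, and 51.7% of genes had the same sign. The Pearson coefficient was 0.27, and 0.048 without Zeb2os. These values describe genes, which are not independent replicates. With few genes called in either table, a low coefficient does not show that the 2 responses differ. The comparisons have no mouse in common. An unadjusted p under 0.05 in both of the authors' deposited tables was found for 23 genes, 0.111% of those tested. They make up 6.44% of the 357 such genes with CMV (1.72% of those tested) and 2.74% of the 840 with hTNNT2 (4.05%). Of the 23, 17 had the same sign, 9 higher and 8 lower with Zeb2os.

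Besides Zeb2os, Gpr65 had the largest shared response of the genes higher with both promoters. Gpr65, a proton-sensing receptor of immune cells, had 0.17 (SE 0.069) with CMV and 0.31 (SE 0.083) with hTNNT2 in the authors' deposited tables. Dll1, a ligand of Notch receptors, was lower with both, at -0.24 with CMV (SE 0.071) and -0.18 with hTNNT2 (SE 0.082) by the authors' deposited tables. Vcam1, a leukocyte adhesion molecule, had 0.16 (SE 0.069) with CMV, and 0.18 (SE 0.082) with hTNNT2, by the authors' deposited tables. Senp3, a SUMO protease, had -0.18 in each (SE 0.058 and 0.080 in the authors' deposited tables). The other 6 of the 23 had opposite signs. Polq, Cyp27a1, Smpdl3b, Gbp6 and Mylk were lower with CMV and higher with hTNNT2, and Adora1 was the reverse. Cyp27a1, a mitochondrial sterol hydroxylase, had a difference of 0.34, as did Gbp6, an interferon-induced GTPase. Mylk, the myosin light chain kinase of smooth muscle, and Smpdl3b, a membrane-bound lipid phosphodiesterase, each had 0.30. None of these differences but that of Zeb2os passed the adjusted threshold.

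**Figure D2:**
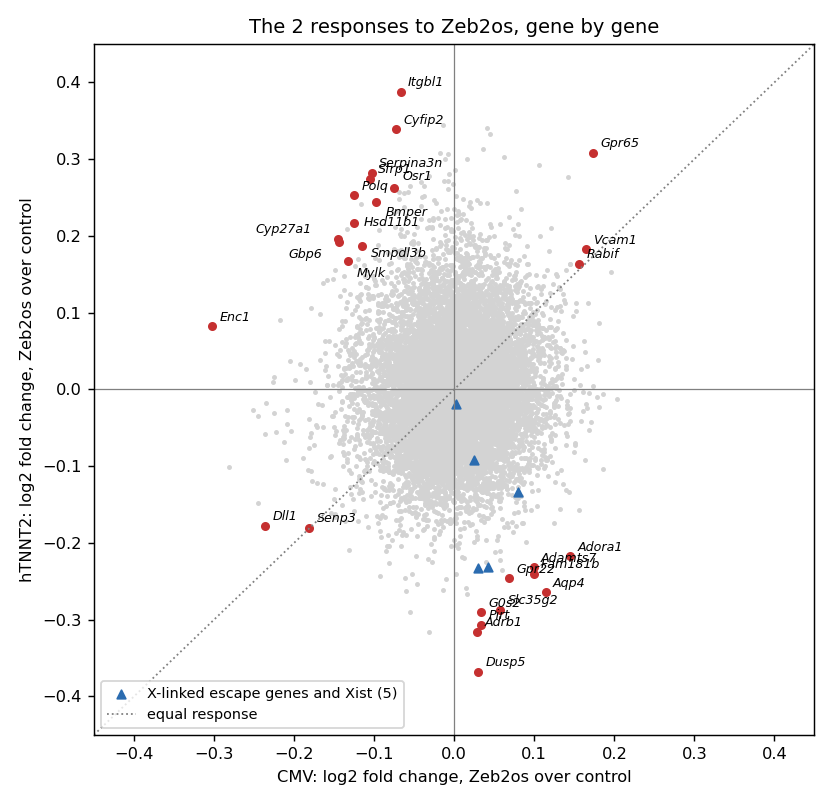
Log2 fold change of Zeb2os over control with CMV (horizontal) and hTNNT2 (vertical) for genes averaging 50 or more counts in both tables (grey), with clearest differences and genes at an unadjusted p under 0.05 in both tables in red and 4 X-linked genes that escape inactivation with Xist as blue triangles. The cloud is not drawn out along the dotted line of equal response, and Zeb2os (3.66 and 4.53) lies outside the axes.

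Gene lists were described by counts and medians beside all genes, of which 49.0% had a difference above 0 (47.9% of those averaging 50 or more counts) and whose median difference was -0.00051. At an unadjusted p under 0.05 in the normal test, 1.66% of all genes were higher and 0.988% lower. Among the 13184 genes averaging 50 or more counts, these were 260 and 149 genes. In 23 of 38 lists the median log2 fold change had opposite signs with the 2 promoters. In none of the lists was a member called. Heart muscle genes stood on the low side. Of the 22 genes of the sarcomere, the contractile unit of muscle, 20 had a smaller value with hTNNT2, with medians of 0.045 with CMV, -0.052 with hTNNT2 and -0.10 for the difference. In 1 of the 22, Nebl, which binds actin at the Z-disc, the difference of -0.17 had an unadjusted p under 0.05. The 9 heart muscle markers all had smaller values (median -0.12), with Tnnt2, the gene of cardiac troponin T, at -0.16 and Myh6, the main adult myosin heavy chain, at -0.13. Of these markers, Myh6, Tnnt2, Tnni3, Actn2, Myl2 and Ttn are also in the sarcomere list, so the counts of these lists are not separate. The mouse Tnnt2 gene had 0.039 (SE 0.053) with CMV and -0.12 (SE 0.081) with hTNNT2 in the authors' deposited tables.

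All 42 nuclear genes of the respiratory chain had a smaller value with hTNNT2, from -0.14 in Ndufs1 (a subunit of complex I) to -0.0064, and none had an unadjusted p under 0.05. With CMV, 39 of the 42 were above 0 in the authors' deposited table, and with hTNNT2 11 were. The median was 0.046 with CMV, -0.019 with hTNNT2 and -0.062 for the difference. Genes of calcium handling and ion channels had smaller values in 19 of 24, with a median difference of -0.094. Hcn4, the pacemaker channel, had -0.26, Kcnh2, a potassium channel of repolarisation, -0.22, and Cacna1g, a T-type calcium channel, -0.19, each at an unadjusted p under 0.05. These were 3 of 24, where 0.988% of all genes were on the lower side. Among 10 adrenergic, muscarinic and related receptors, 9 had smaller values. Adra1b, an alpha-1 receptor, had -0.21 beside Adrb1 and Adora1, whereas Adra1a, its relative, had 0.25 (unadjusted p under 0.05 in each). Thus 3 of 10 were at that level on the lower side and 1 on the higher, against 0.988% and 1.66% of all genes. Glycolysis genes had smaller values in 15 of 21 (median -0.058), and Slc2a4, the insulin-responsive glucose transporter, had -0.14. Fatty acid oxidation genes had smaller values in 17 of 24 (median -0.024), while Pdk4, which spares glucose, had 0.13. Heat shock genes had smaller values in 14 of 18 (median -0.038).

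A trend with abundance ran through both tables and moved with these lists. Across 13183 genes averaging 50 or more counts, Zeb2os left out, the Spearman coefficient of the log2 fold change with the mean count was 0.14 with CMV, -0.13 with hTNNT2 and -0.19 for the difference. With transcript length and with GC content the difference had coefficients of -0.036 and -0.027. Muscle genes are the most abundant of the heart, with a median mean count of 76940 for the sarcomere list against 883 for these genes in the authors' deposited CMV table. With the trend of each table removed by lowess, the median difference of the sarcomere list came to -0.028 (6 of 22 above 0), that of the respiratory chain to -0.022 (12 of 42) and that of the heart muscle markers to -0.032 (2 of 9). Calcium handling came to -0.036, glycolysis to -0.012 and heat shock to -0.0047, and fatty acid oxidation changed sign to 0.0090. The receptor list remained at -0.074. Members of all these lists were among the genes that set the trend, so its removal may take away part of their own shift. Abundance and muscle identity cannot be told apart here. Markers of smooth muscle, macrophages and fibroblasts, given next, stood on the other side, and their part in these lists was not tested.

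Genes of smooth muscle, macrophages, matrix and fibroblasts stood on the high side, and removing the trend with abundance did not lower the medians of these 4 lists. Lymphocyte markers did not share this side, and the side of the granulocyte markers depended on the setting. T and NK cell genes had smaller values in 11 of 11 (median -0.095), B cell genes in 5 of 6 (median -0.059) and granulocyte genes in 6 of 7 (median -0.0020), though nearly all of these averaged under 50 counts. The granulocyte median was 0.0029 with each table centred on its median gene. It was 0.079 with the shrinkage undone by the smaller of 2 solutions, and 4 of 7 were higher in each case. Of 11 genes of smooth muscle and pericytes, the contractile cells of vessel walls, 10 had a larger value with hTNNT2. Their median was -0.059 with CMV, 0.099 with hTNNT2 and 0.15 for the difference, the highest of the 38 lists, and 0.18 with the trend removed. Tagln and Myh11, contractile proteins of smooth muscle, had differences of 0.27 (SE 0.099) and 0.22 (SE 0.097). Kcnj8, a potassium channel subunit of pericytes, had 0.22 and Pdgfrb, the PDGF receptor of pericytes, 0.19. These 4 of 11 had an unadjusted p under 0.05 on the higher side, where the background is 1.66%. With CMV, Tagln had -0.14 (SE 0.071) and with hTNNT2 0.13 (SE 0.069) in the authors' deposited tables, so neither response alone made up the difference.

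Macrophage and monocyte genes had larger values in 13 of 14, with medians of 0.0039 with CMV, 0.13 with hTNNT2 and 0.12 for the difference. Mrc1, a mannose receptor of resident macrophages, had -0.058 (SE 0.065) with CMV and 0.26 (SE 0.074) with hTNNT2 in the authors' deposited tables, for a difference of 0.31 (SE 0.099). Csf1r, the receptor for macrophage growth factor, had 0.22, and with Lyz2 these 3 of 14 had an unadjusted p under 0.05. All 3 were on the higher side, where the background is 1.66%. Extracellular matrix genes had larger values in 29 of 35 (median 0.11). With CMV 19 of the 35 were above 0, and with hTNNT2 33, in the authors' deposited tables. Itgbl1, Dcn and Thbs2 were the 3 of 35 at an unadjusted p under 0.05, all on the higher side, against the same 1.66% of all genes. Dcn (decorin), a proteoglycan that binds collagen, had 0.011 (SE 0.048) with CMV and 0.25 (SE 0.063) with hTNNT2 in the authors' deposited tables, for a difference of 0.24. Thbs2, a matrix glycoprotein, had a difference of 0.27. Fibroblast markers had larger values in 7 of 10 (median 0.10), with Pdgfra, the receptor that marks cardiac fibroblasts, at 0.16 and Col1a2, a chain of type I collagen, at 0.20. The fibroblast and matrix lists both hold Col1a1, Col1a2, Dcn and Lum, so their counts are not separate. Endothelial genes had larger values in 9 of 12 (median 0.051), with Kdr, the VEGF receptor, at 0.13 and Vwf, a clotting protein, at -0.19.

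**Figure D3:**
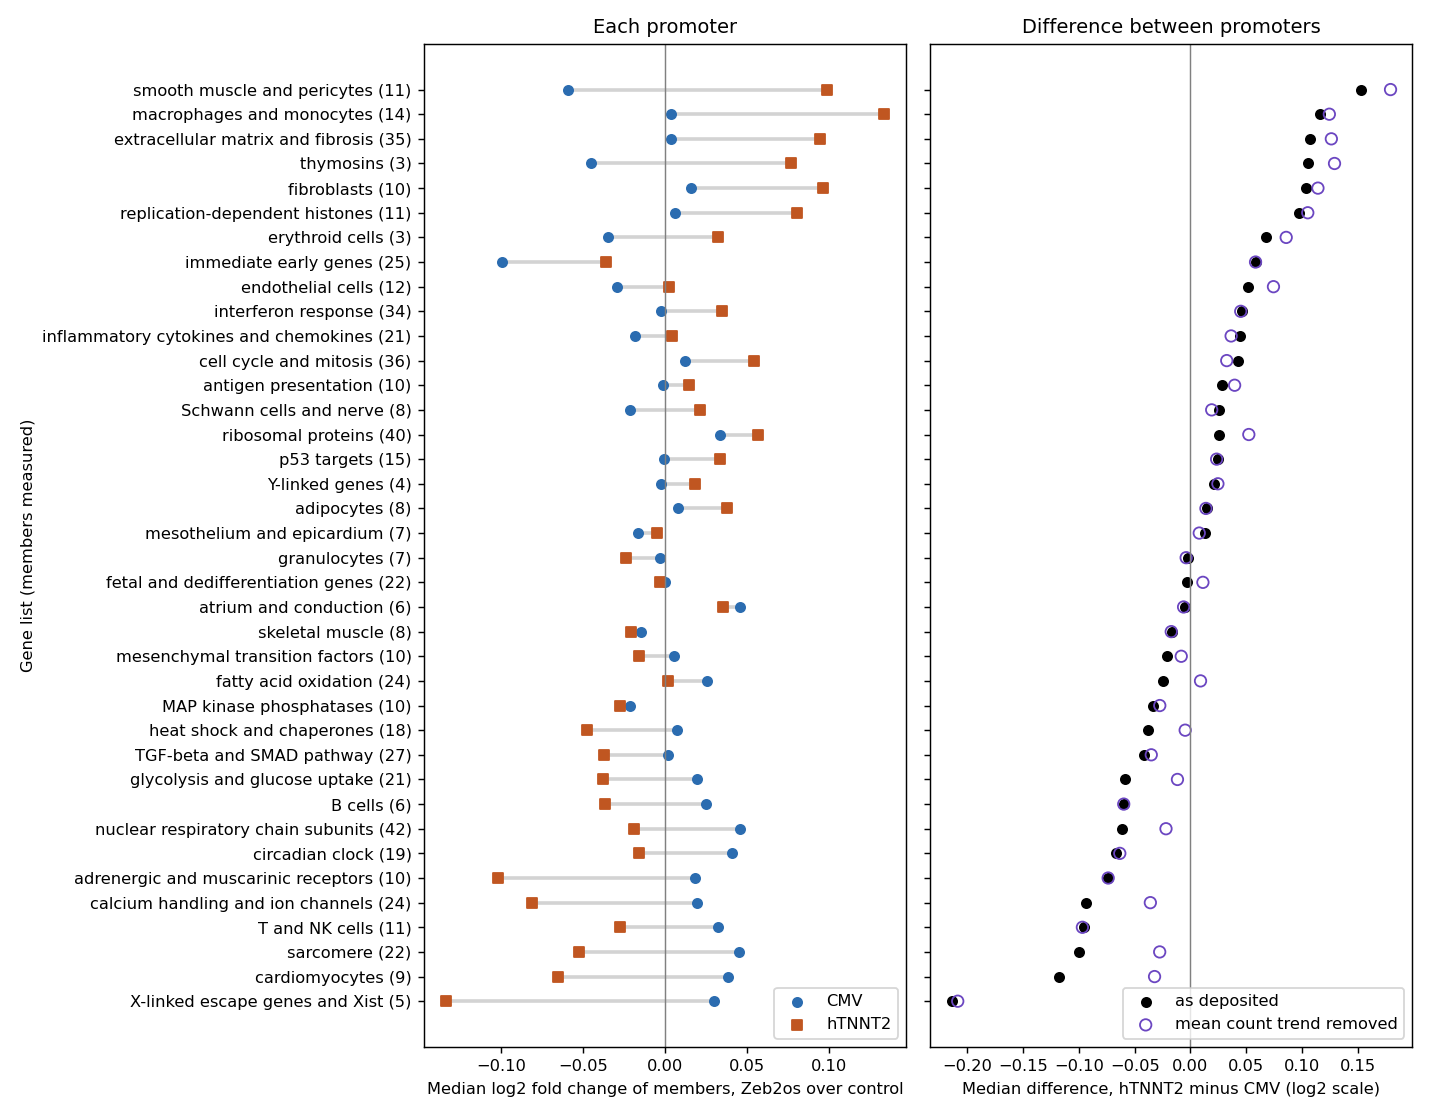
Median of each gene list, with the number of members measured in brackets. Left, the log2 fold change of Zeb2os over control with CMV (blue) and hTNNT2 (orange); right, the hTNNT2 minus CMV difference as deposited (filled) and with the trend with mean count removed (open). Smooth muscle and pericyte genes are highest at 0.15 and X-linked escape genes with Xist lowest at -0.21, and the muscle and energy lists move toward 0 when the trend is removed.

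Lists tied to Zeb2 and to an immature heart state fell on both sides. The TGF-beta and SMAD genes, a pathway in which Zeb2 acts by binding SMAD proteins, had smaller values in 20 of 27 (median -0.042). The 2 of them at an unadjusted p under 0.05 were on the higher side, where the background is 1.66%. They were the ligand Tgfb2 at 0.19 and Ltbp2, a matrix protein of the latent TGF-beta binding family, at 0.21. The 10 mesenchymal transition factors had a median difference of -0.021, with 4 higher and 0 at that level. The thymosins, small peptides that bind actin or chromatin, were higher in 3 of 3, with differences of 0.11 in Tmsb4x (SE 0.11), 0.12 in Tmsb10 (SE 0.11) and 0.051 in Ptma (SE 0.11), none of which passed an unadjusted p of 0.05. Fetal and dedifferentiation genes had 9 of 22 higher and a median of -0.0031. Within them Nppb, the natriuretic peptide of the stressed ventricle, had -0.093 (SE 0.063) with CMV and 0.21 (SE 0.083) with hTNNT2 in the authors' deposited tables, for a difference of 0.30. Myh7, the fetal myosin heavy chain, had a difference of -0.25 and Dab2, an endocytic adaptor, 0.22 (unadjusted p under 0.05 in these 3 of 22, against 2.65% of all genes).

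Of the remaining lists, immediate early genes were below 0 in the median with both promoters, at -0.099 with CMV and -0.036 with hTNNT2. In 18 of 25 the value was larger with hTNNT2, and Btg2, an antiproliferative gene, had a difference of 0.23 (unadjusted p = 0.0205 in the normal test). Cell cycle genes had larger values in 29 of 36 (median 0.043), with Mcm2, a replication helicase subunit, at 0.18 and 0 at an unadjusted p under 0.05. Replication-dependent histones had 10 of 11 (median 0.098), interferon genes 24 of 34 (median 0.046) and ribosomal proteins 27 of 40 (median 0.025), again with 0 at that level. Rpl3l, the ribosomal protein of striated muscle, went the other way at -0.14. Circadian clock genes had smaller values in 14 of 19 (median -0.067), with the repressors Cry1 at -0.22 and Bhlhe40 at 0.21.

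Sex-linked genes followed the makeup of the groups. The list held 4 X-linked genes that escape inactivation, and so are expressed from both X chromosomes in females, and Xist, the RNA of the inactive X. All 5 were above 0 with CMV and below 0 with hTNNT2 in the authors' deposited tables. Ddx3x, an RNA helicase, had a difference of -0.27 (SE 0.11), Kdm5c, a histone demethylase, -0.26 (SE 0.11), and Eif2s3x, a translation initiation factor, -0.21 (SE 0.11), each at an unadjusted p under 0.05. Kdm6a, another histone demethylase, had -0.12. Xist had -0.021 (SE 0.024), and its sign turned with the trend removed (0.026). The list had the lowest median of all, -0.21, against an 80 point gap in the share of males. Promoter and sex cannot be told apart for any gene here, Zeb2os included, since the deposited tables hold no values per mouse.

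The Y-linked genes show what the deposited scale does to a gene that varies strongly between mice. All 4 were below 0 with CMV and above 0 with hTNNT2, yet the largest difference was 0.022 (Ddx3y, with 0.021 in Eif2s3y, 0.020 in Uty and 0.015 in Kdm5d). The SE in the authors' deposited tables never exceeded 0.071 with CMV and 0.083 with hTNNT2, and 1743 and 1609 genes lay within 1% of these ceilings. This is the form of an estimate pulled toward 0 by a normal prior, with a width of 0.143 for CMV and 0.166 for hTNNT2, and the pull is stronger the less certain the gene. Undoing such a prior gave the Y-linked genes log2 fold changes from -1.02 to -0.75 with CMV and from 2.50 to 2.66 with hTNNT2. A small difference on the deposited scale therefore does not bound the change in RNA, and the 2 tables shrink a like change by different amounts. The undone values are not exact either. By the labels the hTNNT2 control group held 0 males among 5 mice, so a Y-linked change larger than 2.50 to 2.66 would be looked for. Why the undone values fall short was not tested, and those of Zeb2os rest on the same step.

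Mean levels themselves were close between the tables apart from a few groups of genes. Relative to the median gene, the log2 ratio of the 13184 genes averaging 50 or more counts had its 5th percentile at -0.12 and its 95th at 0.078. More than 1.2-fold higher in the hTNNT2 table were 14 genes, and more than 1.2-fold lower 96, of which 29 were over 1.5-fold lower. The 10 lowest were genes known for their high level in liver. Alb (serum albumin) had a mean of 6516 in the authors' deposited CMV table and 4400 in the hTNNT2 one, a log2 ratio of -0.78 relative to the median gene. Mat1a, which makes S-adenosylmethionine, was lowest at -0.91, and Cps1, the first enzyme of the urea cycle, was at -0.86. A list of 22 liver genes, drawn up after these values were seen, had ratios from -0.91 to -0.45. Their fold changes between Zeb2os and control stayed near 0 on the deposited scale, with a median SE of 0.012 with CMV and 0.015 with hTNNT2 in the authors' deposited tables, beside 0.0076 and 0.014 for the Y-linked genes. The median difference of this list was 0.00081 on that scale (12 of 22 higher). With the prior undone by the smaller of 2 possible SE it was 0.42 (18 of 22), and with the trend with abundance removed -0.0094 (3 of 22). Promoter, table and any batch cannot be told apart here either.

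At the other end, Zeb2os at 3.17 was followed by Tubb1, a platelet tubulin, at 0.41 and Ppbp, a platelet chemokine, at 0.39 on the same log2 scale. Cdk5r1, an activator of a neuronal kinase, had 0.39, Fmod, a collagen-binding proteoglycan, 0.38, Lonrf1, a ubiquitin ligase, 0.34 and Zeb2 0.32. A list of 10 platelet genes, also drawn up afterwards, had a median of 0.24. Platelet genes and Zeb2 were both high in the hTNNT2 table, and the part of platelets in the level of Zeb2 was not tested. In the difference of the responses, the platelet list had 2 of 10 members above 0 and a median of -0.028.

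**Figure D4:**
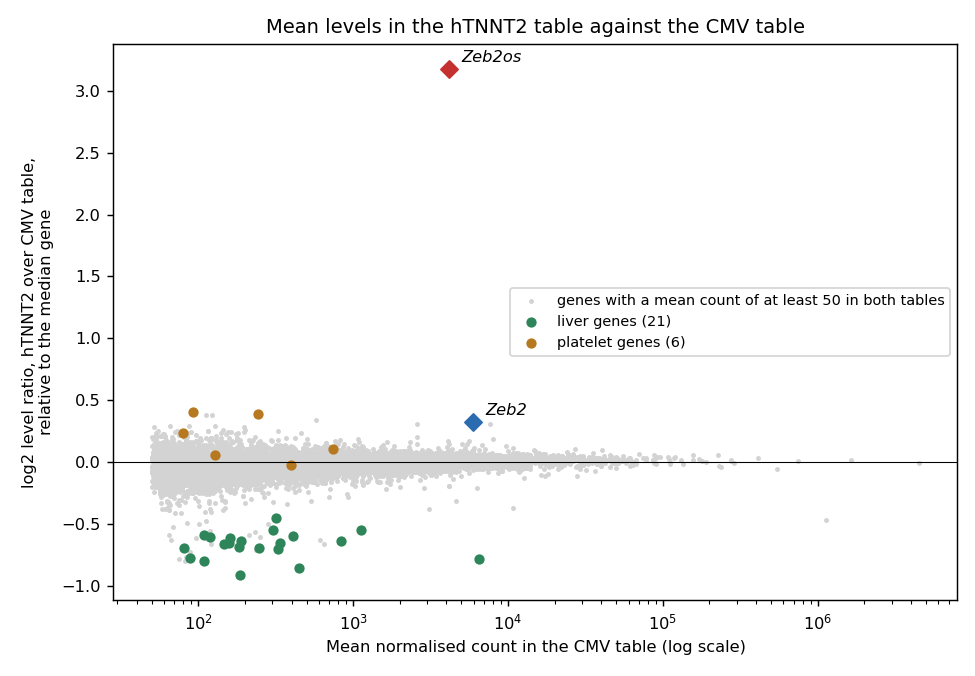
Log2 ratio of mean normalised counts, hTNNT2 over CMV table, relative to the median gene, against the mean count in the CMV table (log axis). Zeb2os stands at 3.17 and Zeb2 at 0.32, and the 21 liver genes averaging 50 or more counts (green) lie between -0.91 and -0.45; 6 platelet genes are shown in brown.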

How the data were processed

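Libraries of 20 heart apices were made from total RNA after removal of ribosomal RNA, per the labels' protocols. Reads were trimmed with Trim Galore and groups compared with DESeq2 on GRCm38 and mm10, per the submitters' processing notes. Aligner, counter and versions: not given in the sources used here. For each promoter the authors deposited 1 comparison table, without values or depth per mouse, and its number of reads is unknown. Per the file headers, mean normalised counts were deposited as a signal, fold changes and SE on the log2 scale, and the Wald statistic as a score. The p-value and adjusted p-value are the authors' own. The deposited statistic has the size of the log2 fold change over its SE and the opposite sign, so it was turned, and fold changes were used as deposited.

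Each difference of log2 fold changes (hTNNT2 minus CMV) was set against its SE, the square root of the sum of both squared SE, with a 2-sided normal p and Benjamini-Hochberg adjustment over 20754 genes. Level ratios were centred on the median of genes averaging 50 or more counts in both tables. Data were also simulated with the deposited SE of the 20754 genes, with differences set on the deposited, shrunken scale. The changed genes were drawn from those averaging 50 or more counts in both tables. Of 100 genes with a difference of 0.4 on that scale 69% were called, and 100% of 100 with 0.6. A like difference in RNA would be smaller on that scale, so these shares do not hold for it. Unchanged genes made up 4.52% of all simulated calls, a share that the adjustment itself sets, so it says nothing of the real data. The real statistics had a robust spread of 0.799, narrower than that simulated for unchanged genes. The 2 comparisons share no mice, and whether mice came from separate litters is not given, so a p-value measures only the spread between these mice.

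The genes reported, the 38 gene lists and the tests were chosen with earlier results of these data known. The naming rule took Zeb2os, Zeb2, the 10 clearest differences each way among genes averaging 50 or more counts, the authors' calls, all sex-linked list members and up to 4 members of each list. It also took 6 genes of equal and 6 of opposite sign at p under 0.05 in both tables and the 10 highest and lowest level ratios. Predicted genes were left out, and not all genes taken are named. Of 625 list entries, 623 matched a gene, 13 through an older symbol, and 608 had a difference. Coordinates came from RefSeq on GRCm38 and, for Zeb2os, GENCODE M21. Calculations used Python 3.11.15 with numpy 2.4.6, pandas 2.3.3, scipy 1.17.1, statsmodels 0.14.6 and matplotlib 3.10.9. Alternatives were other scales (prior undone, Wald statistics), centring, count minimums, trend removal and sex chromosomes left out.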

Additional observations from a re-analysis of the deposited data

Results flagged for a closer look

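The response of Zeb2os differed between the promoters by 0.867 on the deposited log2 scale, by a test of the difference itself (2-sided normal test, Benjamini-Hochberg adjusted p = 4.02e-11). With the prior undone the difference was 1.78 with the smaller and 1.66 with the larger of 2 possible SE, and such values are approximate for a change of this size.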

How the results depend on the processing

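Undoing the prior behind the deposited fold changes has 2 solutions, a smaller and a larger SE. Zeb2os was the 1 gene called higher with hTNNT2 with the smaller SE, centring on the median gene, either filter on low values, trend removal, leaving out the sex chromosomes (which leaves its own value as it was) and an adjusted p under 0.01. The count was 0 when Wald statistics were compared (lowest adjusted p 0.111, 329 genes higher at an unadjusted p under 0.05), and 2 with the larger SE and at an adjusted p under 0.1, where Polq joined it. The count lower with hTNNT2 was 0 in each of these 10 alternatives. Of 74 named differences, that of Xist changed sign, to 0.026 with the trend removed. The median difference changed sign in 0 to 3 lists per alternative, among them fatty acid oxidation with the trend removed. The Spearman coefficient of the responses ranged from 0.056 to 0.076, and the log2 level ratio of Zeb2os from 3.17 to 3.18.

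No paired analysis was possible because the mice carry different numbers in each group and the tables hold no values per mouse, so no fit without single mice was made. Depth per library is unknown, and no limit from counting is given.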
